A study of Mus musculus with 10 samples.

Results

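Immunoglobulin chain transcripts were examined in epithelial cells sorted from the mouse prostate. The members were the rows of the epithelium table whose gene symbol names a heavy, kappa or lambda chain segment (variable, V; joining, J; constant, C) and whose mean over the 6 libraries was at least 0.5 RPKM, a read count scaled to the length of the gene and the depth of the library. This selected 179 genes out of 375 immunoglobulin rows and 48897 rows in all. They comprised 83 heavy V, 4 heavy J and 7 heavy C genes, 74 kappa V, 4 kappa J and 1 kappa C gene, and 3 lambda V and 3 lambda C genes. Of the other rows, 140 were at 0 in every library and 56 lay above 0 but under the minimum. The genes were chosen by their symbols and selected on their mean RPKM in these same libraries. The genes just inside were Igkv1-133 and Ighv1-58, at means of 0.511 and 0.514 RPKM, and those just outside were Igkj1 and Ighv8-10, at 0.457 and 0.458 RPKM. Among the 179 genes, 140 reached the minimum in both groups, 33 reached it only through the libraries labelled KO and 6 only through the controls, so members of the latter kinds had to differ between the groups.

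The series holds 10 RNA-seq libraries in 4 groups. EpCAM+ CD45- cells came from mice 3 months old, in 3 libraries (A, B, C) called Ctrl and 3 called KO, all labelled C57BL/6. The KO genotype adds Arid1aPC-/- to a deletion of another gene that all 6 libraries share, so the controls were not wild type. Cre was driven by the Probasin promoter, to delete genes in the prostate epithelium, and whether it acted in other cells was not tested here. The other 4 libraries came from the mouse prostate cancer line Myc-CaP, with 2 empty vector (EV) and 2 Arid1a KO libraries. The labels do not say whether libraries A, B and C came from separate mice, so the p-values measure the spread between these libraries, which may be technical. The sort selected against CD45, the product of the leukocyte gene Ptprc, and B cells and most plasma cells carry that protein.

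An antibody is built from a pair of identical heavy chains and a pair of identical light chains. Each developing B cell joins one V segment, in heavy chains a D segment, and one J segment into the exon that binds antigen, and many clones can share a V gene. The junctions that mark single clones were not read here. The constant gene sets the class: Ighm encodes the IgM heavy chain with which every B cell starts, Ighd that of IgD, the Ighg genes those of the IgG classes and Igha that of IgA, the class secreted across mucosal and glandular epithelia. Light chains come from the kappa or the lambda locus, and in the mouse kappa predominates. Antibody-secreting cells make these messages in very large amounts, while epithelial cells are not a known major source. In bulk RNA, fewer cells of a type and less RNA per cell cannot be told apart.

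The V genes on which the results turn are shown by the 3′ end of their second coding exon, read from GENCODE M21 on GRCm38 and printed 5′ to 3′ on the coding strand. In the first set, capitals mark the TGT codon of the conserved cysteine that precedes the junction with D and J or with J. Ighv11-2 and Igkv14-126 are shown because they rose in all 3 libraries labelled KO, Ighv14-4 because it was high in KO B and KO C only, and Ighv9-3 because it was the leading heavy V gene of the controls. The stretches lie at chr12:114048241-114048420 (minus strand), chr6:67896373-67896642 (plus), chr12:114176438-114176617 (minus) and chr12:114140692-114140871 (minus), respectively.
Ighv11-2: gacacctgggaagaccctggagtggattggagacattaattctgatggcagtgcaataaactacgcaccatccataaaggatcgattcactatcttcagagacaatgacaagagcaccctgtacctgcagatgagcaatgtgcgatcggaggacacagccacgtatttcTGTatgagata
Igkv14-126: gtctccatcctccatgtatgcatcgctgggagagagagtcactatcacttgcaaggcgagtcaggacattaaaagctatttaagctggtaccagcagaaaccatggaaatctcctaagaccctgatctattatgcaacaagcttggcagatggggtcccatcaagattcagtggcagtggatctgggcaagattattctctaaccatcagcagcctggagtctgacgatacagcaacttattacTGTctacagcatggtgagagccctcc
Ighv14-4: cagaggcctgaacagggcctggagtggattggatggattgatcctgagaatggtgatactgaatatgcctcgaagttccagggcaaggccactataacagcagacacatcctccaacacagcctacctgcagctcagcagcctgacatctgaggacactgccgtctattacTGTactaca
Ighv9-3: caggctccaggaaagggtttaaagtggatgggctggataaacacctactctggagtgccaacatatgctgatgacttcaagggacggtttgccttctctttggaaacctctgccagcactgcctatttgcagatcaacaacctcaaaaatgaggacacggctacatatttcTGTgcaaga

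The second set is the pair Igkv1-110 (chr6:68270998-68271267, plus) and Igkv1-117 (chr6:68121558-68121827, plus), shown because near copies share reads. Capitals mark the 9 bases at which the 2 stretches differ. Over the whole exon they differed at 10 bases and were 96.8% identical.
Igkv1-110: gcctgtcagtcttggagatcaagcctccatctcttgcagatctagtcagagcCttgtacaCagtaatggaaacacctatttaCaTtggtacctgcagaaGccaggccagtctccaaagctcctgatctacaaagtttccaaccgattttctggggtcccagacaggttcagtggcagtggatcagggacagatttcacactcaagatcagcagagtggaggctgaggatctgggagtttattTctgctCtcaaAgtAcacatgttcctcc
Igkv1-117: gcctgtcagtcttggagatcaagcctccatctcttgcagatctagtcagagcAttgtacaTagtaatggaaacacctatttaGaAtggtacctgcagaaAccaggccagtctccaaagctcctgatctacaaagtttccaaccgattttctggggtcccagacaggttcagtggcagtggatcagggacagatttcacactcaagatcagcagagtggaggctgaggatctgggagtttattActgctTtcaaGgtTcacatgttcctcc

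Of the 157 heavy and kappa V members, 153 had such an exon in the annotation, and 67 of these had another member over 95% identical. The split of reads between such copies is uncertain, and for Ighv14-4 the closest member, Ighv14-1, was 97.4% identical.

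The steps between low RPKM values gave whole reads for all 179 members, at 28800759 to 36316939 mapped reads a library. Arid1a was not reduced in the libraries labelled KO (27.8, 21.9 and 26.5 RPKM in Ctrl A, B and C, and 31.1, 28.8 and 30.8 RPKM in KO A, B and C). The table gives 1 value per gene, so loss of an exon could not be seen, and the groups are named here by their labels. KO B and KO C stood apart from KO A and the controls in a few other genes. H2-Ea-ps, an MHC class II gene that is silent in C57BL/6 mice, had 6, 19 and 13 reads in Ctrl A, B and C and 13 in KO A, but 2973 in KO B and 6377 in KO C. Ifi44l had 0, 0 and 1 read in the controls and 2, 227 and 333 in KO A, B and C. Both genes were picked after their values were seen, and the part of genetic background in these values was not tested. Results that rest on KO B and KO C are therefore also given for KO A.

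Immunoglobulin transcripts were more abundant in each library labelled KO than in each control. Summed over the 179 members, the level was 1642, 1488 and 1593 RPKM in Ctrl A, B and C and 3057, 4378 and 5101 RPKM in KO A, B and C. The controls lay close together, while KO C held more than KO B and KO B more than KO A. The ratio of the geometric means was 2.6, a difference of 1.38 on the log2 scale, and with KO A alone against the controls the difference was 0.959. In whole reads, the immunoglobulin rows took 28000, 31641 and 28317 reads in Ctrl A, B and C and 51402, 72196 and 81232 reads in KO A, B and C. The smallest exact permutation p that 3 libraries in each group allow is 0.1, so sums and shares are given as values only.

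In the limma fit over all 16275 genes tested (log2(RPKM + 1), Benjamini-Hochberg adjusted p-value under 0.05), 103 of the 179 members were called higher and 7 lower, and 69 were not called. Over all genes, 27.5% were called higher, 29.6% lower and 57.1% either way. Among the 140 members that reached the minimum in both groups, 77 were called higher and 2 lower. Members had a median log2 fold change of 1.12, and all genes tested one of -0.03. All libraries labelled KO lay above all controls for 100 members and below them for 7, against 32.4% and 34.4% of all genes tested. These counts include members that reached the minimum through 1 group only, which had to differ. Among the 140 that reached it in both groups, 76 lay above, and those below were not counted. Leaving out KO B and KO C leaves 1 library in the KO arm and assumes that it varies like the controls. No count of calls is therefore given for that fit. Rescaling each library to the same RPKM sum moved the median of all genes by 0.14 and the share of calls that were higher, over all genes, from 48.1% to 64.6%. The members then split into 113 higher and 8 lower, and all 16275 genes tested into 6028 higher and 3307 lower.

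The classes differed in how many members were called. In the heavy chain locus 4 of 7 constant, 3 of 4 J and 52 of 83 V genes were called higher, and 5 V genes lower. In the kappa locus the constant gene, 3 of 4 J and 35 of 74 V genes were called higher and 2 V genes lower. Of the lambda genes, 2 of 3 constant and 3 of 3 V genes were called higher and 0 lower. Over all genes tested, 27.5% were called higher and 29.6% lower. These class counts include members that reached the minimum through 1 group only. Among those that reached it in both groups, 39 of 63 heavy V genes were called higher and 2 lower. For kappa V genes the counts were 25 of 58 higher and 0 lower. The median log2 fold change was 1.2 for heavy V and 0.79 for kappa V genes.

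**Figure D1:**
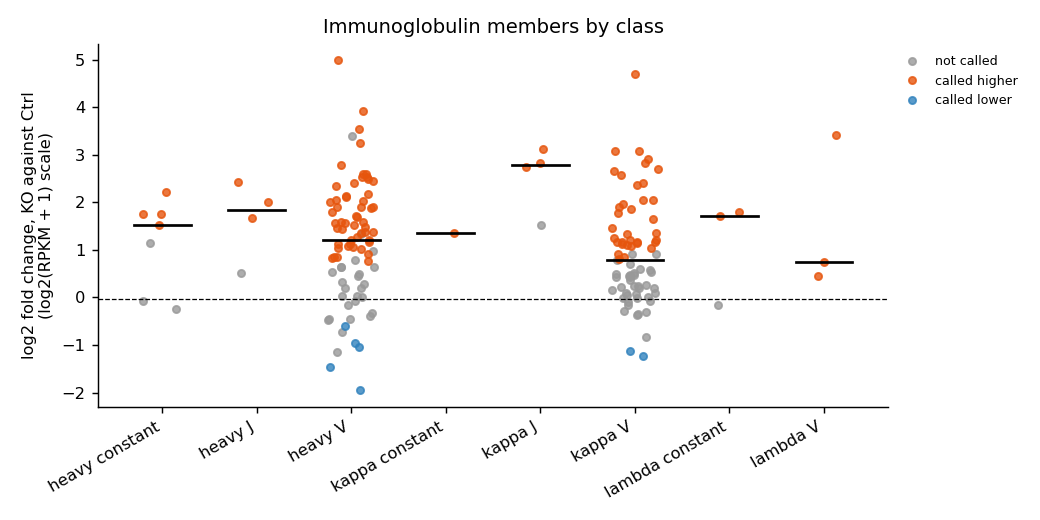
Log2 fold change of the libraries labelled KO against Ctrl (y axis, log2(RPKM + 1) scale) for each of the 179 members, by class (x axis); each point is a gene, orange called higher, blue called lower and grey not called, bars give class medians and the dashed line the median of all genes tested, -0.03. Most points lie above the dashed line, and heavy V genes span -1.95 to 4.98.

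Heavy chain constant genes did not move together. Ighm stood at 123, 129.8 and 115 RPKM in Ctrl A, B and C and at 419, 609.5 and 731 RPKM in KO A, B and C. The groups were far apart, and the log2 fold change was 2.21 (SE 0.19, limma adjusted p = 9.2e-05). Igha stood at 348, 316 and 338 RPKM in the controls and at 260.5, 344 and 347 RPKM in the libraries labelled KO. KO A was the lowest of the 6 and the other two KO libraries lay within the range of the controls, with a log2 fold change of -0.08 (SE 0.12, limma adjusted p = 0.58). Igha also had the lowest coefficient of variation over the 6 libraries among members of at least 5 RPKM, at 10.5%.

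The IgG heavy chain genes were far less abundant than Ighm and Igha on this per-length scale. Ighg2c, the C57BL/6 form of the IgG2a gene, rose from 5.16, 2.16 and 4.71 RPKM in the controls to 11.2, 18.6 and 16.7 RPKM (log2 fold change 1.75, SE 0.28, limma adjusted p = 0.0014). Ighg1 (0.782 to 1.78 RPKM in the controls, 3.09 to 6.79 RPKM in KO) and Ighg3 (0.206 to 1.04 RPKM, then 1.75 to 9.02 RPKM) also rose, with log2 fold changes of 1.52 and 1.75 and limma adjusted p-values of 0.0023 and 0.011. With KO A alone in the KO arm, Ighg2c, Ighg1 and Ighg3 were no longer called (limma adjusted p = 0.063, 0.06 and 0.14).

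Ighg2b was the most abundant of the IgG genes. It stood at 17.7, 13.8 and 14.5 RPKM in the controls and at 15.4, 45.6 and 59.2 RPKM in KO A, B and C. KO A lay within the controls, while KO B and KO C lay above them, and the gene missed the threshold (log2 fold change 1.14, SE 0.43, limma adjusted p = 0.053). Ighg2b passed without KO A, at a log2 fold change of 1.7 (limma adjusted p = 0.00041), and also with a minimum mean of 5 RPKM, after rescaling or on recovered reads (limma adjusted p = 0.043, 0.029 and 0.034). Ighd, which naive B cells express together with Ighm, stayed between 0.684 and 1.72 RPKM in all 6 libraries and was not called (log2 fold change -0.24, limma adjusted p = 0.23). With KO A alone its log2 fold change was -0.6 (limma adjusted p = 0.028).

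**Figure D2:**
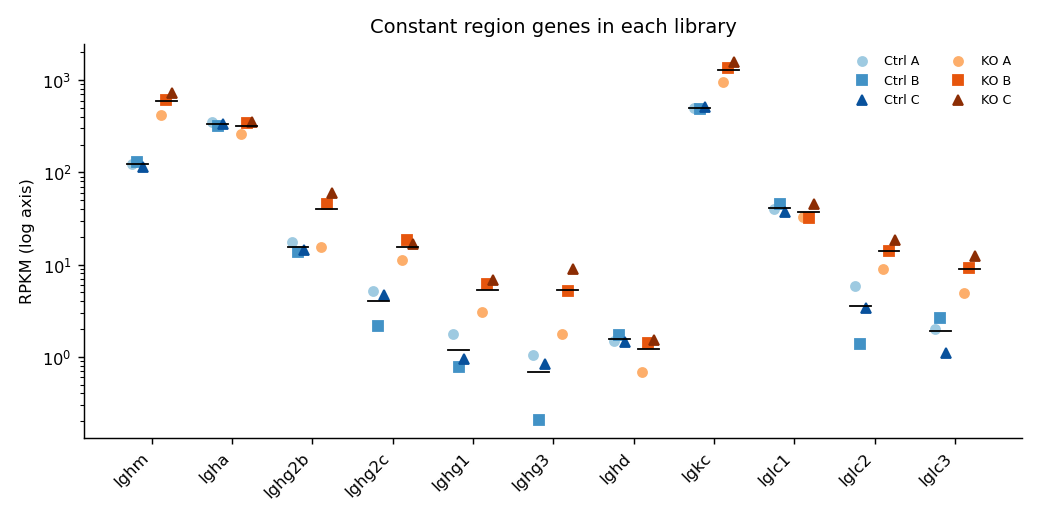
RPKM (log axis) of the 11 constant region genes among the members in each library; blue symbols are Ctrl and orange to brown symbols KO, circles, squares and triangles are libraries A, B and C, and bars give group means. Ighm and Igkc separate the groups, Igha and Iglc1 do not, and KO A sits among the controls for Ighg2b.

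The make-up of the heavy chain pool did not overlap between the groups. Of the summed heavy constant RPKM, Ighm made up 24.8%, 28% and 24.1% in Ctrl A, B and C and 58.9%, 59.1% and 62.4% in KO A, B and C. Igha made up 69.8%, 68% and 71.2% in the controls and 36.6%, 33.4% and 29.6% in the libraries labelled KO. The leading class was thus Igha in each control and Ighm in each library labelled KO, and KO A did not stand apart in these shares. The summed Ighg genes held 5.16%, 3.65% and 4.43% in the controls and 4.43%, 7.33% and 7.83% in KO A, B and C, so the groups overlapped through KO A. Ighd held at most 0.371% of the pool in any library.

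**Figure D3:**
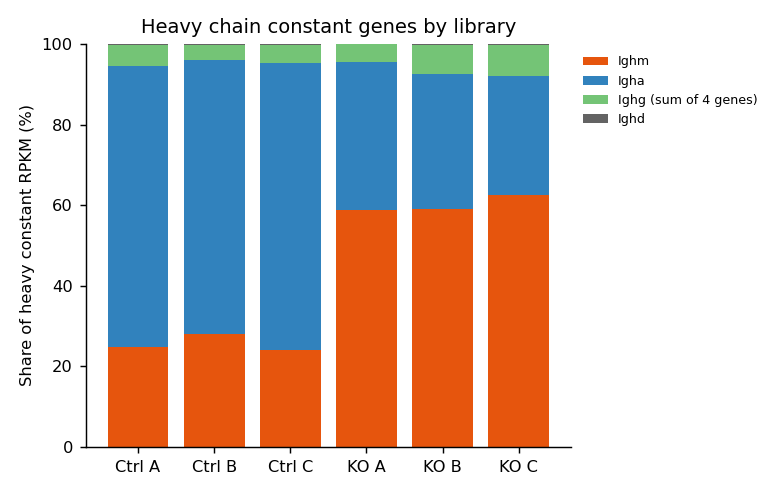
Share of the summed heavy constant RPKM (y axis, percent) taken by Ighm, Igha, the 4 Ighg genes together and Ighd in each library (x axis). Igha fills 68% to 71.2% of the control bars and Ighm 58.9% to 62.4% of the KO bars.

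Among light chains, Igkc, the single kappa constant gene, was the most abundant member. It stood at 497, 482 and 511 RPKM in the controls, a coefficient of variation of 2.93%, and at 948, 1364 and 1574 RPKM in KO A, B and C, one of 24.6%. The groups did not overlap, and the log2 fold change was 1.35 (SE 0.18, limma adjusted p = 0.00061). Iglc1, the main lambda constant gene, stood at 39.8, 44.9 and 37.2 RPKM in the controls and 33.1, 32.1 and 45 RPKM in KO, and was not called (log2 fold change -0.15, SE 0.14, limma adjusted p = 0.35). Without KO C its log2 fold change was -0.31 (limma adjusted p = 0.031).

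The minor lambda genes rose where Iglc1 was not called. Iglc2 went from 5.86, 1.39 and 3.34 RPKM in the controls to 9.02, 14.2 and 18.4 RPKM (log2 fold change 1.79, limma adjusted p = 0.0057), and Iglc3 from 1.11 to 2.61 RPKM in the controls to 4.97 to 12.4 RPKM (1.72 on the log2 scale, limma adjusted p = 0.0025). Iglv2 had 6, 0 and 13 reads in the controls and 119, 156 and 211 in KO A, B and C, with a log2 fold change of 3.42 (limma adjusted p = 0.00012). In contrast Iglv1, the lambda V gene that is usually joined to Iglc1, moved little, from 46.1, 46.7 and 36.6 RPKM to 52.5, 56 and 67.5 RPKM (log2 fold change 0.44, limma adjusted p = 0.019), and the call was lost without Ctrl C (limma adjusted p = 0.053) or without KO C (limma adjusted p = 0.052). Iglv3 was low, at 0.97 to 1.56 RPKM in the controls and 2.31 to 4.14 RPKM in KO (log2 fold change 0.75, limma adjusted p = 0.011). With KO A alone, Iglc2, Iglc3, Iglv1 and Iglv3 were not called (limma adjusted p = 0.15, 0.059, 0.23 and 0.086).

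Kappa chains made up a larger part of the light chain pool in the libraries labelled KO. The kappa share of constant RPKM was 91.3%, 90.8% and 92.5% in Ctrl A, B and C and 95.3%, 96.1% and 95.4% in KO A, B and C. By V genes the share was 85.3%, 81.4% and 87.3% in the controls and 90.5%, 91.9% and 91.6% in KO. Neither share overlapped between the groups. The lambda constant sum itself overlapped, at 41.6 to 48.9 RPKM in the controls and 47 to 75.8 RPKM in KO, and for KO A alone it lay only 0.0337 above the controls on the log2 scale.

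J segments are very short, and few reads fell on them. Ighj4, the highest heavy J segment by mean level, had 2, 6 and 5 reads in the controls and 12, 22 and 28 in KO A, B and C (log2 fold change 2, limma adjusted p = 0.0018, and 0.054 with KO A alone). Igkj4, the highest kappa J segment, had 6, 5 and 0 reads in the controls and 4, 23 and 7 in KO, and was not called (log2 fold change 1.53, limma adjusted p = 0.13). Summed over the 4 members, kappa J levels were 1.65 to 6.22 RPKM in the controls and 16.3 to 54.5 RPKM in KO. The use of single J segments was not tested.

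The ratio of variable to constant gene levels was higher in the libraries labelled KO in the heavy, kappa and lambda loci. Summed heavy V RPKM was 263, 222 and 249 in the controls and 622, 937 and 1107 in KO A, B and C, and summed kappa V RPKM was 279, 209 and 270.1 in the controls and 629.5, 829 and 1008 in KO. The heavy V sum came to 0.527, 0.478 and 0.523 of the heavy constant sum in the controls and to 0.874, 0.909 and 0.944 of it in KO. For kappa, the same ratio was 0.562, 0.434 and 0.529 in the controls and 0.664, 0.607 and 0.641 in KO. For lambda it was 1.01, 0.974 and 0.942 in the controls and 1.4, 1.32 and 1.22 in KO. None of these ratios overlapped between the groups.

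Several patterns over the libraries were seen among the heavy V genes. A first group rose in all 3 libraries labelled KO. Ighv11-2, the heavy V gene that B-1a cells pair with Igkv14-126 in antibodies to phosphatidylcholine, had 13, 8 and 8 reads in the controls and 348, 858 and 712 in KO A, B and C. In RPKM it went from 1.24, 0.624 and 0.727 to 32.4, 81.6 and 70, with a log2 fold change of 4.98 (SE 0.32, limma adjusted p = 3.2e-05), the largest among the members. Ighv6-6 was the most even between libraries, at 2.25, 2.2 and 2.25 RPKM in the controls and 34.2, 35.4 and 40.3 RPKM in KO (log2 fold change 3.54, SE 0.08, limma adjusted p = 5.2e-07). Ighv7-1 was highest in KO A, at 91.9 RPKM against 50.1 and 51.1 RPKM in KO B and KO C and 8.72 to 12.2 RPKM in the controls (log2 fold change 2.54, SE 0.24, limma adjusted p = 0.00014).

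A second group was high in KO B and KO C above all other libraries. Ighv14-4 had 15, 22 and 23 reads in the controls, 18 in KO A, 1703 in KO B and 1594 in KO C, or 1.44 to 2.1 RPKM in the controls, 1.68 RPKM in KO A and 163 and 158 RPKM in KO B and KO C. It was the most abundant heavy V gene over the 6 libraries, yet its call sat at the threshold (log2 fold change 3.91, SE 1.44, limma adjusted p = 0.0499), and in KO A alone its log2 fold change was -0.03 (limma adjusted p = 0.9). Its call was also lost without Ctrl A, Ctrl B, Ctrl C, KO B or KO C (limma adjusted p between 0.091 and 0.15). Ighv2-6 had 4, 13 and 17 reads in the controls, 7 in KO A and 606 and 719 in KO B and KO C, and was not called (log2 fold change 3.4, SE 1.35, limma adjusted p = 0.063), but without KO A its log2 fold change was 5.22 (limma adjusted p = 8e-05). Ighv5-9-1, named after its values were seen, stood at 0.919 to 2.34 RPKM in the controls, 5.92 RPKM in KO A and 39.6 and 37.9 RPKM in KO B and KO C, so that KO A lay above the controls for this gene, unlike for Ighv14-4 and Ighv2-6.

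Some heavy V genes were lower in the libraries labelled KO. Ighv9-3 led the heavy V genes of each control, at 41.7, 41.3 and 32.5 RPKM, and stood at 11.1, 11.9 and 17.7 RPKM in KO A, B and C (log2 fold change -1.46, SE 0.17, limma adjusted p = 0.00038). Its share of heavy V RPKM was 15.9%, 18.6% and 13.1% in the controls. Ighv4-2 had 43, 22 and 27 reads in the controls and 0, 2 and 0 in KO A, B and C (log2 fold change -1.95, limma adjusted p = 0.00036). The other heavy V genes called lower were Ighv1-59, Ighv3-2 and Ighv1-83, all with means under 2.5 RPKM in the controls. GENCODE M21 annotates Ighv4-2, Ighv3-2 and Ighv1-83 as pseudogenes.

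The kappa V genes showed the same kinds of pattern. Igkv14-126 had 8, 9 and 30 reads in the controls and 358, 700 and 837 in KO A, B and C, and its log2 fold change was 4.69 (SE 0.39, limma adjusted p = 8.9e-05). Like Ighv11-2, it was lower in KO A than in KO B and KO C. Igkv7-33 had 0 reads in each control and 126, 60 and 67 in KO, which put its mean in KO at least 30.3-fold higher than the level of 3 reads in a control library. Igkv15-103 was highest in KO A, at 113 RPKM against 48.4 and 48.5 RPKM in KO B and KO C and 14.6 to 18.1 RPKM in the controls (log2 fold change 1.9, SE 0.3, limma adjusted p = 0.0015). Igkv10-96, a leading kappa V gene of the controls at 19.8, 10.8 and 13.8 RPKM, reached 29.4, 35.5 and 38.6 RPKM in KO (log2 fold change 1.2, limma adjusted p = 0.0017, and 0.073 with KO A alone).

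Igkv1-110 and Igkv1-117, the near copies printed above, were the most abundant kappa V genes and were led by KO B and KO C. Igkv1-110 stood at 12.6, 12.9 and 11.5 RPKM in the controls, 24.3 RPKM in KO A and 177 and 184 RPKM in KO B and KO C (log2 fold change 2.82, SE 0.7, limma adjusted p = 0.01). Igkv1-117 stood at 10.1, 7.79 and 8.09 RPKM in the controls, 35.8 RPKM in KO A and 117 and 123 RPKM in KO B and KO C (log2 fold change 3.08, SE 0.43, limma adjusted p = 0.00079). Both were therefore raised in KO A too, although less. Igkv1-99, the member with the highest coefficient of variation among those of at least 5 RPKM, had 0 reads in the controls and in KO A, 177 in KO B and 155 in KO C. Its fit gave a limma adjusted p-value of 0.049 that was not under 0.05 without any 1 of the controls, KO B or KO C (limma adjusted p between 0.096 and 0.15).

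Igkv3-4 and Igkv14-130 were the kappa V genes called lower. Igkv3-4 had 14, 21 and 19 reads in the controls and 3, 0 and 0 in KO A, B and C, and Igkv14-130 had 16, 27 and 14 reads in the controls and 0, 0 and 1 in KO. Their log2 fold changes were -1.23 and -1.12 (limma adjusted p = 0.00021 and 0.00026). At the edge of the selection, Igkv1-133 had 31 reads in KO C against 1 in KO A and 0 in the other four libraries, while Ighv1-58 had 0 reads in each control and 12, 10 and 10 in KO.

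**Figure D4:**
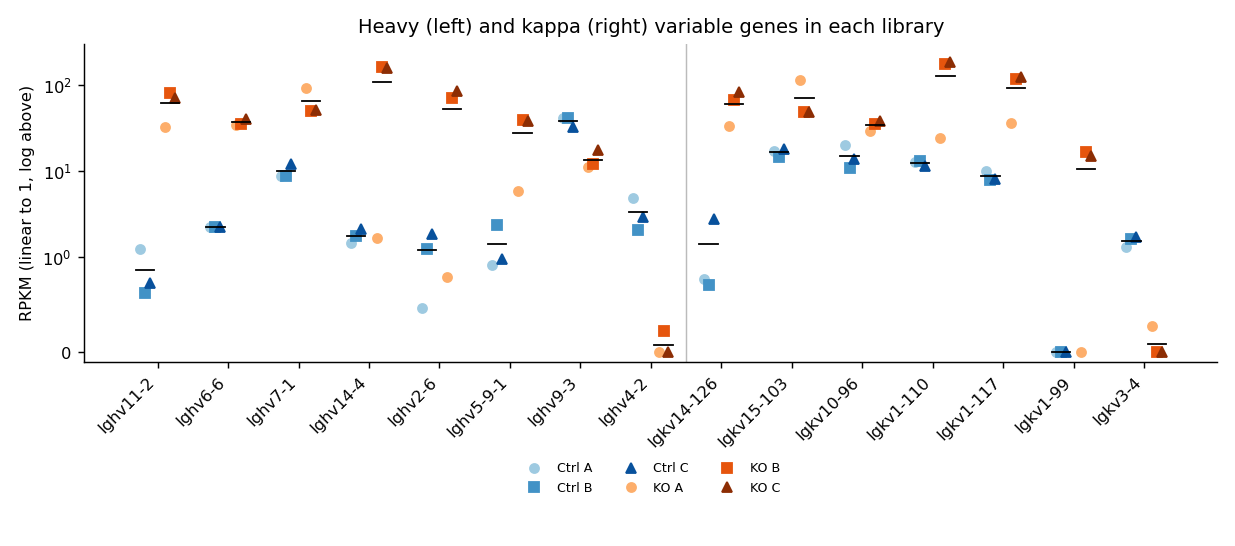
RPKM (y axis, linear to 1 and log above) of 8 heavy and 7 kappa V genes in each library; colours and symbols mark the libraries as in the plot of constant genes, and bars give group means. Ighv14-4, Ighv2-6 and Igkv1-99 are high in KO B and KO C and at control level in KO A, while Ighv11-2, Ighv6-6 and Igkv14-126 are high in all 3.

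Counted over the 157 heavy and kappa V members, 20 were at least 4 times higher in all 3 libraries labelled KO than in any control, with at least 20 reads in each of them. Another 10 met the same rule for KO B and KO C against the other four libraries, 2 for KO A alone and 1 for KO C alone. This rule was set after the values were seen. By the same rule, 119 of 16096 other genes tested (0.739%) were high in the 3 libraries and 7 (0.0435%) in KO B and KO C, against 12.7% and 6.37% of the V members. Of the V members, 16 heavy and 14 kappa V genes reached the minimum only through KO and had to differ. The rule was not counted over members above the minimum in both groups, so these shares are a description only. The 10 genes high in KO B and KO C were Ighv14-4, Ighv2-6, Ighv12-3, Ighv1-11, Ighv5-9-1, Ighv9-4, Ighv10-3, Igkv1-99, Igkv1-110 and Igkv4-55. Ighv12-3, which B-1a cells also use against phosphatidylcholine, had 0 reads in the controls, 2 in KO A, 28 in KO B and 24 in KO C.

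The libraries were then compared by how much of their V gene use they shared, as the sum over genes of the smaller of the shares in each pair. KO B and KO C shared 87% of heavy V and 88.9% of kappa V use. KO A shared 62.8% and 63.1% of heavy V use with KO B and KO C, and 64.7% and 64.6% of kappa V use. Ctrl A and Ctrl C shared 84.1% and 87.6%, and Ctrl B shared 74.3% to 80.3% with either of them. Between the groups the values ran from 43.9% to 55.6% for heavy V and from 52.2% to 63.7% for kappa V. In kappa V use KO A shared 63.7%, 62.4% and 63.3% with Ctrl A, B and C, close to its values with KO B and KO C. The correlation of log2 reads over the 74 kappa V genes is given as a description. By it KO A was closer to KO B and KO C (r = 0.777 and 0.694) than to the controls (0.549 to 0.568). However, 14 of these genes passed the minimum only through KO. KO A and KO B had the same 5 leading kappa V genes.

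No pair of libraries agreed within sampling noise. The chi-square per degree of freedom over heavy V reads was 3.42 for Ctrl A and Ctrl C, 7.48 for KO B and KO C and 38.8 for KO A and KO B. Over the other genes tested it was 5.1, 19.5 and 12.2 for the same pairs, so KO B was closer to KO A than to KO C in those genes while it was closer to KO C in V genes. This comparison covers counting error only and does not show that libraries are separate samples; none was merged.

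**Figure D5:**
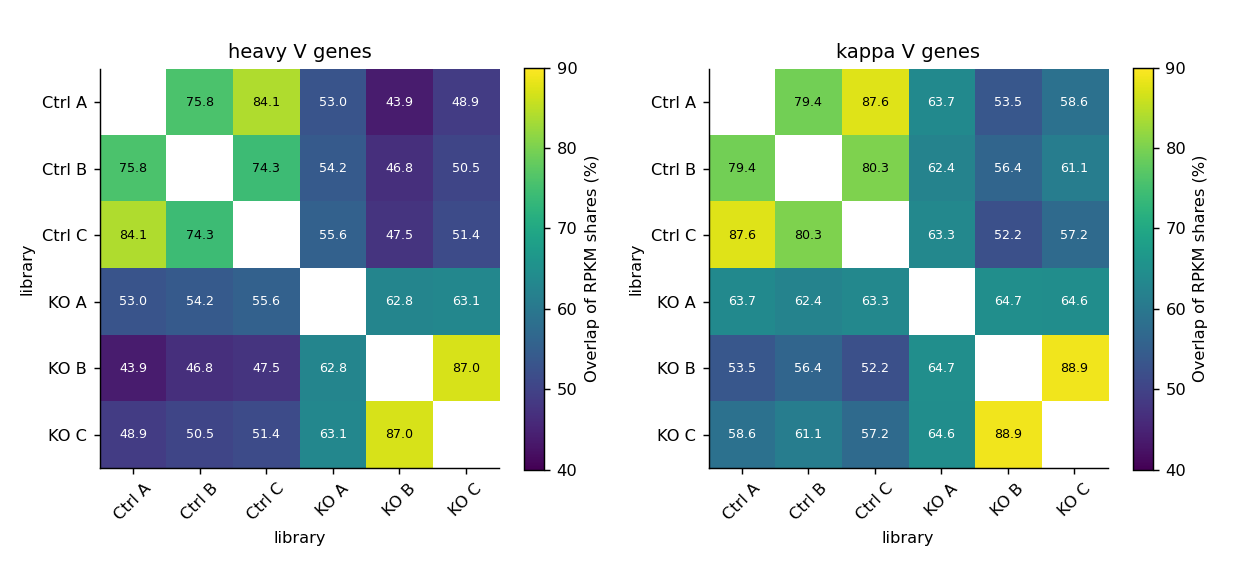
Overlap of V gene use between each pair of libraries (rows and columns), as the sum of the smaller RPKM shares in percent, for 83 heavy V genes (left) and 74 kappa V genes (right). The KO B and KO C pair is the highest in both panels, at 87% and 88.9%, and KO A reaches at most 63.1% and 64.7% with other KO libraries.

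The skew of V gene use did not overlap between the groups in the kappa locus and overlapped in the heavy locus. The most abundant kappa V gene held 7.07%, 6.98% and 6.71% of kappa V RPKM in Ctrl A, B and C and 17.9%, 21.4% and 18.3% in KO A, B and C. It was Igkv10-96 or Igkv15-103 in the controls, Igkv15-103 in KO A and Igkv1-110 in KO B and KO C. The effective number of kappa V genes, the exponential of the Shannon entropy of their shares, was 41.6, 42.4 and 43.2 in the controls and 35.4, 25.3 and 29.5 in KO. When kappa V genes with a copy over 95% identical were left out, a choice made after seeing the data, the difference in effective number shrank from -12.3 to -0.864. The difference in top gene share went from 12.3 to 8.64 points and that in top 5 share from 19.2 to 4.07 points. The genes left out include Igkv1-110 and Igkv1-117 themselves.

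In the heavy locus, the top gene held 15.9%, 18.6% and 13.1% in the controls and 14.8%, 17.4% and 14.3% in KO. The effective number was 38.6, 33.5 and 45.2 in the controls and 41.3, 34 and 38.2 in KO, so neither measure separated the groups. The identity of the leading gene did change, from Ighv9-3 in each control to Ighv7-1 in KO A and Ighv14-4 in KO B and KO C. Across the 6 libraries, 15 different heavy V genes appeared among the 5 most abundant of some library and 0 appeared in all 6, against 10 and 3 for kappa V.

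By family, the heavy V9 genes held 15.1% to 19.4% of heavy V RPKM in the controls and 1.8% to 2.47% in KO, most of it Ighv9-3. The V5 family held 12.6% to 15.8% in the controls and 7.25% to 8.82% in KO, while the single V11 member held 0.281% to 0.474% and 5.21% to 8.7%. The V1 family, the largest with 38 members, overlapped between the groups at 27.7% to 33.7% and 26.1% to 39.8%. In the kappa locus the V1 family held 9.29% to 12.2% in the controls, 14.6% in KO A and 40.4% and 35.5% in KO B and KO C, and the V14 family 2.81% to 3.52% and 6.96% to 10.2%. The kappa V6 family held 14.1% to 14.6% in the controls and 5.37% to 7.33% in KO, and the V17 family 3.34% to 4.77% and 0.482% to 1.11%.

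The spread between libraries was wide for immunoglobulin genes. The median coefficient of variation of the 78 members of at least 5 RPKM was 26.2% in the controls and 33.5% in KO, against 7.73% and 6.57% for the other genes nearest to each in mean level. Counting error alone would give 13.2% and 8.6%. Of these 78 members, 71 varied more than like-level genes in the controls and 75 in KO. Heavy V genes of at least 5 RPKM had medians of 31.1% in the controls and 35.7% in KO, and kappa V genes 22.9% and 33.3%. The constant genes Igkc, Ighm and Igha were even in the controls, at 2.93%, 6.27% and 4.89%, and less so in KO, at 24.6%, 26.9% and 15.5%.

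Other genes of the B lineage did not move together. Of 15 surface B lineage genes tested, 6 were called higher and 3 lower (27.5% and 29.6% of all genes), with a median log2 fold change of 0.21. Cd79a, which carries the signal of the B cell receptor, went from 3.36 to 3.53 RPKM to 5.15, 8.14 and 9.13 RPKM (log2 fold change 0.89, limma adjusted p = 0.0036), and Ms4a1, which encodes CD20, from 0.415 to 0.998 RPKM to 1.17, 2.17 and 2.79 RPKM (0.82 on the log2 scale, limma adjusted p = 0.014). Both genes were lowest in KO A among the KO libraries, as the immunoglobulin sum was, and Ms4a1 was not called with KO A alone (limma adjusted p = 0.24). Cd22 and Spib also rose, by 1.12 and 1.38 on the log2 scale (limma adjusted p = 3.8e-05 and 3e-05), whereas Ebf1 fell by 0.5 (limma adjusted p = 0.0064) and Blnk, at 30.2 to 43.7 RPKM in the 6 libraries, by 0.26 (limma adjusted p = 0.0454). The call of Blnk was lost without Ctrl A, Ctrl B, KO A or KO B.

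Of 12 antibody-secreting cell genes tested, 8 were called higher and 4 lower (27.5% and 29.6% of all genes). Jchain, whose product links IgA dimers and IgM pentamers, stood at 19.2, 20.1 and 19.5 RPKM in the controls and 32.9, 55.7 and 59.5 RPKM in KO A, B and C (log2 fold change 1.24, SE 0.2, limma adjusted p = 0.0015). Mzb1, a chaperone for immunoglobulin, stood at 1.78 to 2.46 RPKM and 2.55 to 4.14 RPKM (0.47 on the log2 scale, limma adjusted p = 0.028), a call lost without Ctrl A, Ctrl C, KO B or KO C. Xbp1 and Sdc1, which epithelial cells express as well, rose by 0.49 and 0.31 on the log2 scale (limma adjusted p = 0.00073 and 0.023), and the call of Sdc1 was lost without Ctrl A, Ctrl C, KO A or KO B. Txndc5 and Fkbp11, which act in protein folding and secretion, fell by 0.34 and 1.01 on the log2 scale (limma adjusted p = 0.0017 and 0.00059). The rest of the list also split. Prdm1, Pou2af1, Irf4 and Slamf7 rose by 1.96, 1.68, 0.99 and 0.57 (limma adjusted p = 1.7e-05, 4.2e-05, 0.00016 and 0.0034). Derl3 and Eaf2 fell by 0.31 and 0.4 (limma adjusted p = 0.025 and 0.0048). Tnfrsf17, under the minimum, had 7, 8 and 8 reads in the controls and 10, 7 and 4 in KO A, B and C.

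Genes of antibody gene assembly were low. Rag1, the V(D)J recombinase gene, was at 0 in each control and at most 0.0103 RPKM in KO, Rag2 was at 0 in all 6, and 0 of the 7 listed assembly genes reached the minimum over the 6 libraries. Dntt, which adds bases at the V(D)J junctions, had 9, 29 and 10 reads in the controls and 44, 48 and 43 in KO A, B and C, or 0.679 to 0.756 RPKM in KO, and its groups did not overlap. Of the class switch and germinal centre genes, 0 of 5 tested were called by limma. Of 11 genes linked to B-1 cells, 5 were called higher and 1 lower (27.5% and 29.6% of all genes). Cd5, carried by B-1a and by T cells, went from 1.86 to 3.84 RPKM to 5.8 to 6.23 RPKM (log2 fold change 0.86, limma adjusted p = 0.0048), and Ctla4, Ahr, Siglecg and Ptpn22 rose by 1.56, 0.95, 0.48 and 0.58 (limma adjusted p = 0.00014, 8.6e-05, 0.035 and 0.0027). The call of Siglecg was lost without any 1 of the KO libraries. Tbx21 fell by 0.38 (limma adjusted p = 0.012), and Spn, Zbtb32, Bhlhe41, Plscr1 and Anxa2 were not called, at log2 fold changes from -0.11 to 0.2.

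Antibody receptors split by type. Pigr, the epithelial receptor that carries dimeric IgA and IgM across the cell, stood at 529.8, 535 and 485 RPKM in the controls and 223, 213 and 369 RPKM in KO A, B and C (log2 fold change -0.99, SE 0.2, limma adjusted p = 0.0042). Fcgrt, the neonatal Fc receptor, fell by 0.43 on the log2 scale (limma adjusted p = 0.0019). The leukocyte Fc receptor genes Fcgr2b, Fcgr3 and Fcer1g rose by 1.84, 1.53 and 0.68 (limma adjusted p = 5.5e-06, 4.1e-05 and 0.00015). Among B cell attractants and survival factors, 1 of 8 tested was called higher and 5 lower (27.5% and 29.6% of all genes). Cxcl13, the chemokine that draws B cells, went from 12.5 to 15.2 RPKM to 26.5 to 28.3 RPKM (log2 fold change 0.92, limma adjusted p = 0.00011). Cxcl12, Tnfsf13b (BAFF), Il6 and Ccl25 fell by 1.23, 0.43, 0.51 and 0.5 (limma adjusted p = 0.00026, 0.017, 0.042 and 0.02), and the calls of Il6, Ccl25 and Tnfsf13b were lost without at least 1 library.

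Markers of leukocytes at large moved with the groups too. Of 8 pan-leukocyte genes, 7 were called higher and 1 lower (27.5% and 29.6% of all genes), and their summed level was 899.7 to 926 RPKM in the controls and 1076 to 1159 RPKM in KO. Ptprc, the gene of the protein that the sort selected against, went from 30.3, 26 and 29.5 RPKM to 56.2, 58.1 and 57.6 RPKM (log2 fold change 0.98, SE 0.07, limma adjusted p = 5.4e-05). Unlike the immunoglobulin sum, Ptprc was even over the 3 KO libraries. Laptm5 and Lcp1 rose by 0.92 each and Arhgdib by 0.36 (limma adjusted p = 0.00013, 5.3e-05 and 0.0037), Coro1a stood at the threshold (0.23, limma adjusted p = 0.0469, lost without Ctrl A, Ctrl C, KO A or KO B), and Cd52 fell by 1.09 (limma adjusted p = 5.1e-05).

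Of 11 T cell genes, 6 were called higher and 1 lower (27.5% and 29.6% of all genes), with a summed level of 58.1 to 63.2 RPKM in the controls and 70.4 to 74.5 RPKM in KO. Trac, Cd2, Lck and Cd4 rose by 0.58, 0.66, 0.88 and 0.84 (limma adjusted p = 0.0048, 0.0043, 9.9e-05 and 0.00022), and Trbc1 fell by 0.54 (limma adjusted p = 0.025, lost without KO B or KO C). Of 8 epithelial genes, 2 were called higher, 2 lower and 4 not (27.5% and 29.6% of all genes higher and lower). Their median log2 fold change was -0.15. They summed to 3257 to 3967 RPKM in the controls and 4113 to 4492 RPKM in KO, a rise carried by Krt5 and Krt14. Krt5 went from 262 to 346 RPKM to 711 to 849.5 RPKM, and Krt14 from 122 to 179.9 RPKM to 722 to 918 RPKM. Epcam, on which the cells were sorted, went from 279, 351 and 281 RPKM to 183, 194 and 225 RPKM (log2 fold change -0.59, limma adjusted p = 0.0041). Krt5 and Krt14, keratins of basal cells, rose by 1.34 and 2.45 (limma adjusted p = 0.00013 and 3.3e-05), and Krt18, a luminal keratin, fell by 0.37 (limma adjusted p = 0.013). Krt8, Cdh1, Cldn4 and Cldn7 were not called, at log2 fold changes of 0.03, -0.23, -0.08 and -0.21. None of the defining leukocyte markers was at 0, and the part of such cells in the immunoglobulin values was not tested.

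Myc-CaP cells, whose table is in TPM, a unit scaled to the same total in each library, and was normalized separately, gave the level of these rows in a cell line. In EV 1 and in both Arid1a KO libraries all 375 immunoglobulin rows were listed at 0. In EV 2, 4 rows were above 0 and summed to 1.35 TPM, the highest being Ighv1-37 at 0.441 TPM.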

How the data were processed

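RNA from sorted prostate epithelium (3 libraries a group) and Myc-CaP cells (2 a group) was sequenced. The authors deposited RPKM values per gene for the epithelium and, in a separate table, TPM values for Myc-CaP. The study's methods name TopHat2 and strand-specific HTSeq-count on GRCm38/mm10, whereas the submitters' processing notes name HISAT2, HTSeq and DESeq2 on mm10, so the aligner of these files is uncertain. Each table had 48897 rows, and values in the sample files and tables were the same.

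Groups were taken from the genotype labels. Genes with a mean of at least 0.5 RPKM were tested on log2(RPKM + 1) with limma 3.58.1 (R 4.3.3), with an intensity trend and Benjamini-Hochberg adjustment over all 16275 genes, so fold changes of low genes are understated. limma was tested on simulated data first. Members and lists were chosen with earlier results of these data known.

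Whole reads were recovered from the RPKM steps by searching a wide range of depths in Ctrl A for the largest at which implied gene lengths were whole. They came out whole for 99.99% of genes above 0 in at least 3 libraries (within 5e-05 reads, or 5e-07 of the value). Of 1500 genes simulated at other depths, 98.87% were recovered exactly. Reads are known up to a factor common to all 6 libraries, and 3 V genes with implied lengths under 250 bases were doubled. Implied lengths of 104 of 179 members equalled one in GENCODE M21 or RefSeq. A count of 3 reads in a library was used as the floor, which covers counting error only.

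Named genes were the constant genes, the highest J segment of a locus, the 5 most abundant V genes of each kind, the 3 with the largest and 2 with the lowest log2 fold change, the extremes of variation, the genes beside the selection minimum and, from each list, called genes up to 5 by level plus defining genes; others are said to be chosen after their values were seen or belong to a counted group. The planned exact tests of sums and shares are not printed, because 3 against 3 allows no p-value under 0.1. Alternatives were another pseudocount, other minimums, rescaling, quantile normalization, no intensity trend, the library letter as a block and leaving out each library. Voom on recovered reads, leaving out KO B and KO C together, shares of reads and leaving out close copies were chosen after seeing the data. Some genes of the named rule are not reported here.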

Additional observations from a re-analysis of the deposited data

How the results depend on the processing

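Of 77 named genes, 41 kept their call in each of the 15 alternatives that gave them a value, and of 34 named members 18 did; with a minimum mean of 5 RPKM only 57 of the 77 had one. Without a filter on low values, 68 members were called higher and 10 listed companion genes lower (main 103 and 19). With a minimum mean of 5 RPKM, 56 members were called higher and 1 lower, 12 companion genes lower, and 2867 of all genes higher and 3005 lower, since fewer genes were tested. After rescaling to the same RPKM sum 10 companion genes were called lower. Leaving out 1 library gave 96 to 106 members called higher and 7 to 11 lower, the 11 without Ctrl B, and 12 to 18 companion genes lower, the 12 without KO B. Without KO B and KO C, 2438 genes were called higher and 2808 lower and 9 companion genes lower, 74 of the 110 member calls were kept, and Ighv14-4 turned to a log2 fold change of -0.03 and Igkv1-99 to 0.0.

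With the library letter as a replicate block, 109 members were called higher and 11 lower. Libraries of the same letter deviated with correlations of 0.0409, 0.00944 and -0.0573, which show no pairing by letter. The labels do not say whether a letter links libraries, and so few libraries cannot settle it.

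Differences (KO minus Ctrl) in heavy V skew had no stable sign. The effective number differed by -1.23, by 0.282 with a minimum of 5 RPKM, by 3.3 without the most abundant V gene and by 3.72 without close copies, and the top 5 share, 3.75 points higher, became -0.89 and -6.17 under the latter 2. Leaving out 1 library gave -4.04 to 1.81 for the effective number and -1.77 to 0.993 for the top gene share. The cause was not tested. The kappa J sum gave no value at the minimum of 5 RPKM, where a library was at 0. At under about 20 reads in a library, as for J segments and many V genes, depth limits what can be seen.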
